A study of Homo sapiens with 24 samples.

Results

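RNA levels of 9 intestinal transcription factors, PDX1, CDX1, CDX2, KLF4, KLF5, ELF3, HNF4G, GATA6 and SOX9, were followed in SW480, a human colon cancer cell line. The genes were taken by name, with every probe listed for them, and no cut on their measured values was used. Earlier results of these data were known when they were chosen. They had 11 of the 47323 probes on the array (Illumina HumanHT-12 v4 bead array), and 7 of the 9 were among the 12141 genes that gave enough signal to be tested. PDX1, HNF4G, KLF4, ELF3 and SOX9 changed in at least 1 comparison, CDX2 and KLF5 passed the test in none, and CDX1 and GATA6 were below background on every array.

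The cells had been made stable with the retrovirus pBABE-puro. There were 4 lines, all carrying the vector: a control line, and lines labelled BOP1 (a ribosome biogenesis factor), CKS2 (a partner of cyclin-dependent kinases) and NFIL3 (a bZIP transcription factor) for the gene introduced. Treatment lasted 24 h, with an inhibitor or with DMSO, its solvent. All lines were measured in DMSO, and the control line in DMSO only. The BOP1, CKS2 and NFIL3 lines received 3.3 µM LY294002, an inhibitor of PI3 kinase. The BOP1 line also received 33.3 nM SP600125, which inhibits the kinase JNK, and 667 nM DAPT, which inhibits the gamma-secretase that Notch signalling needs. The CKS2 and NFIL3 lines received 3.3 µM SB203580, an inhibitor of the kinase p38, and the NFIL3 line 33.3 nM Rapamycin, an inhibitor of mTOR. Each of the 12 groups had 2 arrays, which the labels call biological replicates, 24 arrays in all. No source used here gives whether a line was a clone or a pool.

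These factors have distinct places in the gut. PDX1 is a homeobox factor of the pancreas and duodenum, while the caudal homeobox factors CDX1 and CDX2 set and keep intestinal identity. HNF4G is a nuclear receptor that acts with its relative HNF4A on enterocyte genes, and GATA6 is a zinc finger factor of endoderm and intestinal epithelium. KLF5 is known from dividing crypt cells and KLF4 from differentiated cells, including goblet cells. ELF3 is an ETS factor of epithelia, and SOX9 is a Wnt-responsive factor of the crypt base.

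The mean raw signal of an array was between 971 and 1366, and an array detected between 17984 and 19958 probes, 38.0% to 42.2% of its total. Fewer probes were detected on the 2 control line arrays (18067 and 18085) than on the DMSO arrays of the other lines (18435 to 19666), and the part of this in the results was not tested. The introduced genes were not seen as higher in their own lines. The BOP1 probe was below its control level by 0.56 on the log2 scale in the BOP1 line (a difference of -0.56 ± 0.09, SE, adjusted p = 0.000971 in limma), and the CKS2 and NFIL3 probes differed by -0.13 and -0.00 in their own lines. The lower BOP1 signal was not particular to the BOP1 line. In the CKS2 and NFIL3 lines the BOP1 probe differed from control by -0.61 and -0.52 (limma, adjusted p = 0.000472 and 0.00138). No source used here gives where these probes lie in the transcripts. The lines are therefore called by their labels, which the arrays did not check. Of 8 colon epithelial markers, EPCAM, CDH1, KRT8, KRT18 and KRT19 were detected on all 24 arrays, and VIL1, CDH17 and CEACAM5 on none. Of the markers of other cell types, 2 of 5 leukocyte, 2 of 5 fibroblast, 1 of 4 smooth muscle and 0 of 5 endothelial genes were above background often enough to be tested.

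The promoters of the 2 factors that changed under SB203580 in both lines treated with it, ELF3 and KLF4, are shown here because they moved in opposite directions. The sequences are from RefSeq on GRCh38.p14 and run from 250 bases before to 50 bases after the start of the gene. The ELF3 promoter lies at chr1:202010337-202010636 on the plus strand, and that of KLF4 at chr9:107489720-107490019 on the minus strand. Capitals mark matches, on either strand, to AGGAA (the core of ETS factor sites), GGGCGG (the GC box that SP and KLF factors bind), TATAAA (the TATA box), TGANTCA (an AP-1 site) and CACGTG (an E-box).
ELF3: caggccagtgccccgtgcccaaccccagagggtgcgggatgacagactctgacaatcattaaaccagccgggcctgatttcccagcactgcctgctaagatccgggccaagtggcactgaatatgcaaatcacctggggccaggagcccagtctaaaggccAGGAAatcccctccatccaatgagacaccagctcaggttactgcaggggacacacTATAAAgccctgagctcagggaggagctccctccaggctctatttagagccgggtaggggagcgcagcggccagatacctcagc
KLF4: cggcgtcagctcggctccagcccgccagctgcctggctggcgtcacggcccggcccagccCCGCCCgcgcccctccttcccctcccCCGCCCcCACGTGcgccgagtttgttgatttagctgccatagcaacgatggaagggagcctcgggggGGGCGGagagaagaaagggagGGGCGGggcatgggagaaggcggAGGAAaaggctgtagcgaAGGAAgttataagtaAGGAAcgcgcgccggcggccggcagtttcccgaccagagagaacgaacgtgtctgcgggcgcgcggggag
The ELF3 promoter held 1 ETS core and 1 TATA box. The KLF4 promoter held 3 ETS cores, 4 GC boxes and 1 E-box, with no overlap between motifs in either sequence. Over all 35114 promoters of this length, 63.1% held the ETS core, 45% the GC box, 11.5% the TATA box, 7.71% the AP-1 site and 7.26% the E-box, so matches to the first pair were common. A match is a description of the letters and not evidence of binding.

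A probe was called detected on an array when its detection p-value was under 0.01, and levels are log2 of the background-corrected, normalized signal. SOX9, on chromosome 17, had a median level of 12.2 over the 24 arrays, ELF3 10.85, KLF4 10.20, CDX2 10.05, KLF5 8.67, PDX1 7.64 and HNF4G 6.58. Different probes do not share a scale of RNA amount, so these levels do not rank the genes. All of these except HNF4G were detected on all 24 arrays, and HNF4G, on chromosome 8, was detected on 19. PDX1 had a second probe that was detected on no array (log2 4.65 to 4.98), so its values rest on 1 probe.

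CDX1 and GATA6 were never detected. CDX1 levels lay between 4.55 and 5.15, with a lowest detection p of 0.16, and GATA6 levels between 4.82 and 5.71, with a lowest detection p of 0.0195. Both were therefore left out of the tests. When all probes were tested without that filter, limma called neither gene in any of the 19 comparisons, with 0 at an unadjusted p under 0.05 for each and smallest adjusted p of 0.395 and 0.398.

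**Figure D1:**
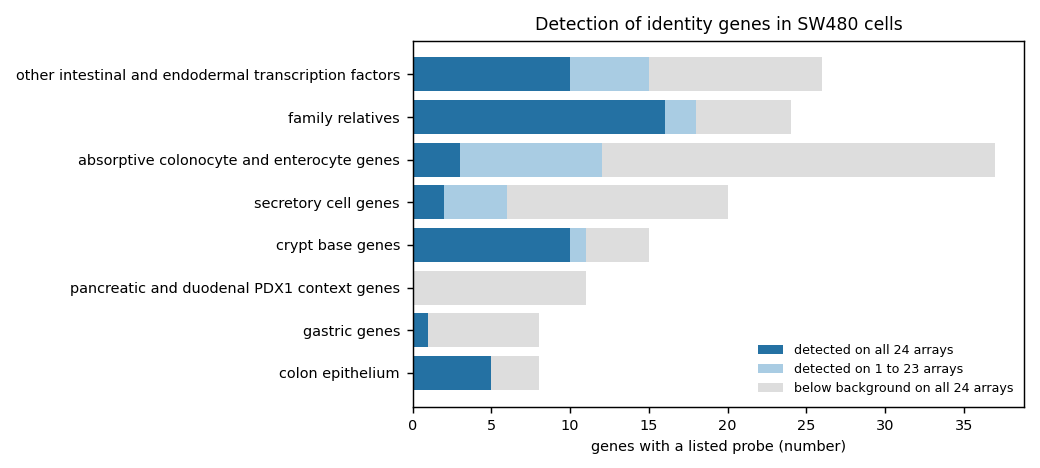
Number of genes with a listed probe (x axis) in 8 lists of identity genes (y axis), split by the number of arrays on which the gene's probes were detected. No gene of the pancreatic and duodenal list, which does not hold PDX1 itself, was detected, while 10 of 15 crypt base genes were detected on all 24 arrays.

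The setting in which these factors were measured was that of a cell line with few differentiated intestinal genes above background. Of 37 absorptive cell genes with a probe, 25 were below background on all 24 arrays, among them LGALS4, FABP2, SLC26A3 and CA1. In the same list CA2, USH1C and TFCP2L1 were detected on all 24 arrays, KRT20 on 23 and DPP4 on 22. Of 20 secretory genes, 14 were below background on all arrays, including the goblet cell genes MUC2 and TFF3, while FCGBP and SCG2 were detected on all 24. Crypt base genes were more often measured: 11 of 15 were tested, with LGR5, OLFM4, SMOC2 and PTPRO below background. Of 11 genes that mark the pancreas and duodenum, where PDX1 acts, none was detected on any array, INS, SST, GIP and PTF1A among them. Of 26 other intestinal and endodermal factors with a probe, 14 were tested, and GATA4, GATA5, ATOH1, ASCL2 and SPDEF were below background throughout. Detected on all 24 arrays were 10 of the 26: FOXA1, FOXA3, GFI1, HES1, MNX1, ONECUT2, TCF7L2, MYB, PITX1 and HOXB13.

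The factors differed in how far they varied over the 12 groups. The span from the lowest to the highest group mean was 2.16 for PDX1, which lay above that of 99.5% of the genes tested. It was 1.25 for ELF3 (92.5%), 1.11 for HNF4G (88.2%), 0.76 for KLF4 (63.6%), 0.72 for SOX9 (59.5%), 0.72 for KLF5 (59.1%) and 0.43 for CDX2 (21.4%). The pooled SD between replicate arrays was between 0.08 for SOX9 and 0.25 for KLF5.

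**Figure D2:**
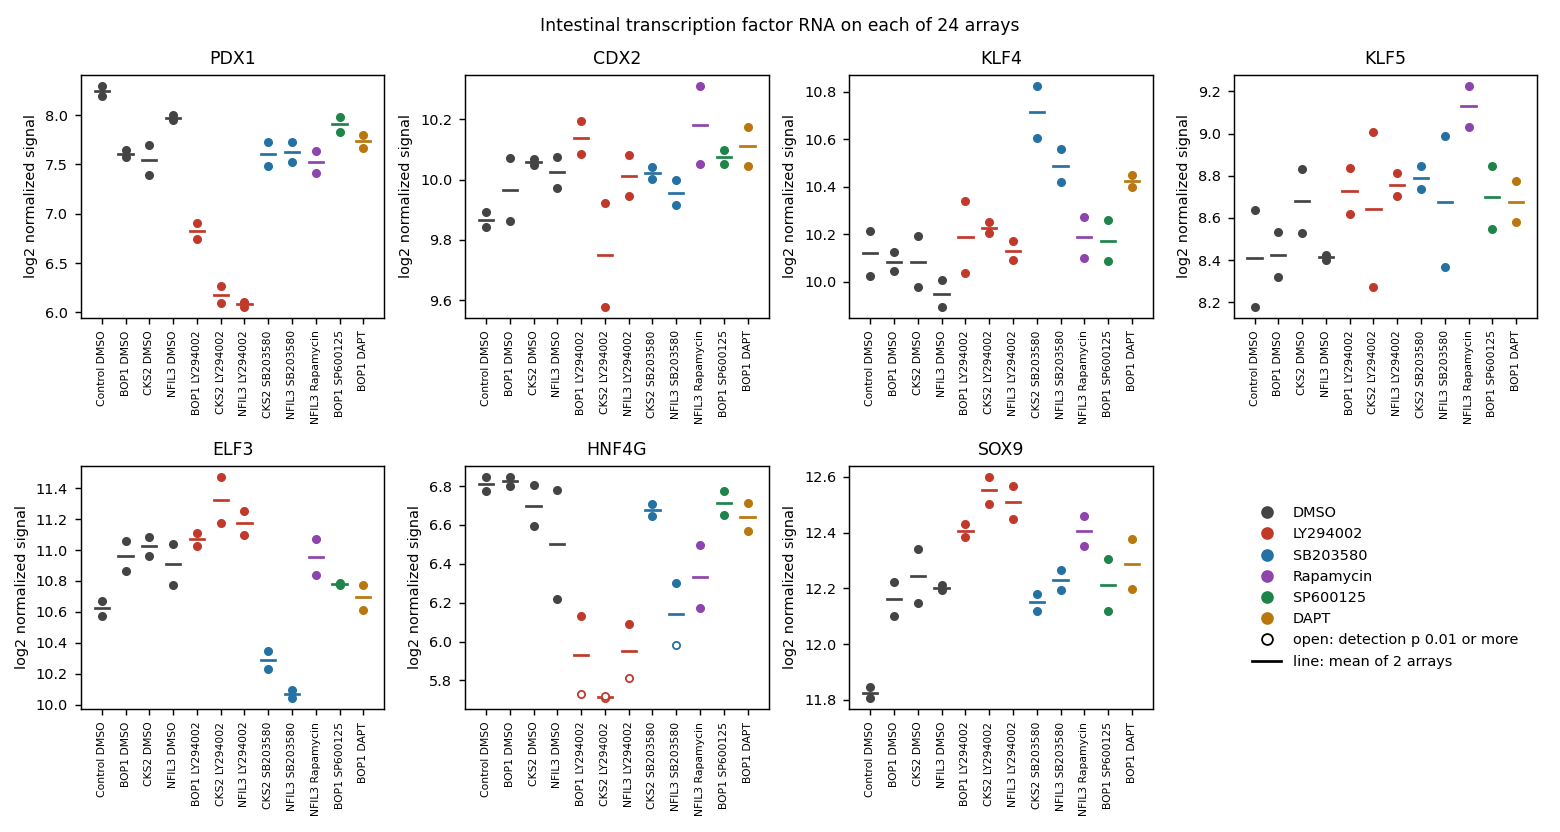
Log2 normalized signal of the 7 tested factors (y axis, a scale of its own for each gene) on each of 24 arrays, grouped by line and treatment (x axis), with a line at the mean of 2 arrays and open points where the detection p was 0.01 or more. PDX1 was lowest on the 6 LY294002 arrays and ELF3 on the 4 SB203580 arrays, 4 of the 5 highest KLF4 arrays were in SB203580, and SOX9 lowest on the 2 control arrays.

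The first question was how the lines differed from the control line without inhibitor. PDX1 was lower in the BOP1 and CKS2 lines, and SOX9 was higher in all 3 lines, while ELF3 passed the test in the CKS2 line. CDX2, KLF4, KLF5 and HNF4G did not pass it in any line. The 3 comparisons share the 2 control arrays, so they are not independent of each other. Of the 7 factors tested, the BOP1 line had 2 calls, the CKS2 line 3 and the NFIL3 line 1. Of all genes tested, 13.4%, 13.7% and 14.1% were called in these comparisons (adjusted p under 0.05). With 7 factors, 1 call of 7 is near that share.

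PDX1 stood at 8.19 and 8.30 on the control arrays in DMSO, at 7.57 and 7.65 in the BOP1 line, at 7.40 and 7.69 in the CKS2 line and at 7.95 and 8.00 in the NFIL3 line. Both control arrays were above all 6 arrays of the other lines. PDX1 fell by 0.64 in the BOP1 line (-0.64 ± 0.12, SE, 1.55-fold, adjusted p = 0.00348) and by 0.70 in the CKS2 line (-0.70 ± 0.12, SE, 1.62-fold, adjusted p = 0.00189). In the NFIL3 line the difference was -0.27 ± 0.12 (SE, adjusted p = 0.145). In bulk RNA such as this, fewer cells that make a transcript and less of it per cell cannot be told apart.

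SOX9 stood at 11.81 and 11.85 in the control line, at 12.22 and 12.10 in the BOP1 line, at 12.34 and 12.15 in the CKS2 line and at 12.19 and 12.21 in the NFIL3 line. The control arrays were the lowest of all 24. SOX9 rose by 0.34 ± 0.10 (SE, adjusted p = 0.0319), 0.42 ± 0.10 (adjusted p = 0.0103) and 0.38 ± 0.10 (adjusted p = 0.0175) in the 3 lines, at 1.26-fold to 1.34-fold. Each of these calls was lost without some single arrays: the BOP1 and NFIL3 calls without any 1 of their 4 arrays (adjusted p up to 0.204 and 0.0921), and the CKS2 call without control replicate 1 or CKS2 DMSO replicate 1 (adjusted p 0.0627 and 0.117). With median scaling of the arrays in place of quantile normalization, the SOX9 differences in the BOP1 and NFIL3 lines were 0.19 and 0.16, neither called (adjusted p 0.187 and 0.241). ACTA2, the smooth muscle actin, was higher than control in the same lines (0.47, 0.55 and 0.50), and its part in these differences was not tested.

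ELF3 stood at 10.57 and 10.67 in the control line and at 10.96 and 11.09 in the CKS2 line, with no overlap. It rose by 0.40 ± 0.12 (SE, 1.32-fold, adjusted p = 0.0382) in the CKS2 line, a call that was lost without any 1 of the 4 arrays (adjusted p 0.0874 to 0.205). In the BOP1 and NFIL3 lines ELF3 differed from control by 0.34 ± 0.12 (SE, adjusted p = 0.0769) and 0.28 ± 0.12 (SE, adjusted p = 0.128).

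The remaining factors had intervals around 0. For CDX2 the 95% intervals of the 3 differences ran from -0.15 to 0.34, from -0.06 to 0.44 and from -0.09 to 0.40. KLF5, the most variable between replicates, differed by 0.02, 0.27 and 0.00, each ± 0.22 (SE). Between the BOP1, CKS2 and NFIL3 lines themselves, limma called none of the 7 factors in 3 comparisons. There 0, 1 and 1 factors had an unadjusted p under 0.05, both times PDX1, and 0.00824%, 0.00824% and 0% of all genes were called.

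**Figure D3:**
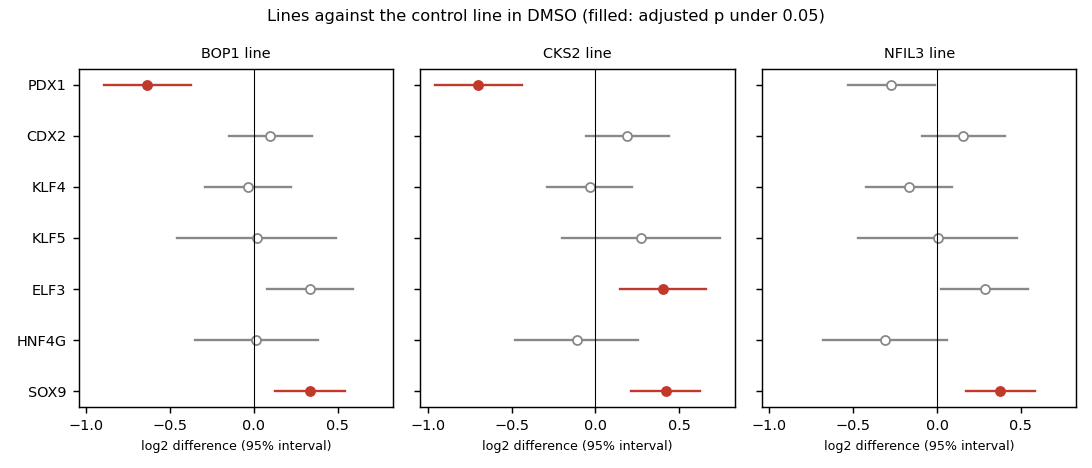
Log2 difference of each line from the control line in DMSO (x axis, with 95% interval) for the 7 tested factors (y axis). PDX1 lay below 0 past the threshold in 2 lines and SOX9 above 0 in 3.

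The next question was how these factors changed with LY294002. The activity of PI3 kinase itself was not measured. With LY294002, PDX1 and HNF4G fell in each of the 3 lines, and SOX9 rose in 2. The fall of PDX1 was 3.71-fold in the NFIL3 line, 2.58-fold in CKS2 cells and 1.72-fold in BOP1 cells. In the BOP1, CKS2 and NFIL3 lines 2, 3 and 3 of the 7 factors were called, beside 21.6%, 25.6% and 25.9% of all genes. Averaged over the lines, 4 of 7 were called, beside 49.2% of all genes, so the count alone is near the background.

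PDX1 stood at 7.57 and 7.65 in the BOP1 line in DMSO and at 6.90 and 6.74 in LY294002. In the CKS2 line it stood at 7.40 and 7.69 in DMSO and at 6.27 and 6.09 in LY294002. In the NFIL3 line it stood at 7.95 and 8.00 in DMSO and at 6.11 and 6.06 in LY294002. The 6 arrays with LY294002 were the lowest of all 24, and in no line did they overlap the DMSO arrays. In LY294002 the CKS2 and NFIL3 arrays were near the limit of detection for PDX1 (detection p 0.0052 to 0.0078). The sizes of those falls are therefore less exact.

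The differences for PDX1 were -0.79 ± 0.12 (SE, adjusted p = 0.000464) in the BOP1 line, -1.37 ± 0.12 (adjusted p = 3.79e-06) in the CKS2 line and -1.89 ± 0.12 (adjusted p = 2.52e-07) in the NFIL3 line. Of the 12141 genes, 1 fell further than PDX1 in the NFIL3 line, 14 in the CKS2 line and 180 in the BOP1 line. Over the 3 lines the mean difference was -1.35 ± 0.07 (SE, adjusted p = 1.87e-09). Without background correction the falls were smaller, -0.50, -0.79 and -1.14, and all were called.

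The size of the PDX1 fall passed a test of its difference in 1 pair of lines. The effect in the BOP1 line minus that in the NFIL3 line was 1.10 ± 0.17 (SE, adjusted p = 0.0357), the NFIL3 line falling further. Of all genes, 0.14% were called in this comparison. The call was lost under 11 of 16 alternatives (adjusted p up to 0.159), among them the omission of any single array but NFIL3 DMSO replicate 1. The difference between the BOP1 and CKS2 lines was 0.58 ± 0.17 (SE, adjusted p = 0.764) and that between the CKS2 and NFIL3 lines 0.52 ± 0.17 (SE, adjusted p = 0.233), and 0% and 0.297% of all genes were called there. These 3 differences share arrays with each other. In DMSO the NFIL3 line had the highest PDX1 level of the 3, and in LY294002 its arrays overlapped those of the CKS2 line.

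HNF4G was also near the limit of detection, so its falls are less exact. It stood at 6.85 and 6.80 in the BOP1 line in DMSO and at 6.13 and 5.73 in LY294002. In the CKS2 line it stood at 6.59 and 6.80 in DMSO and at 5.71 and 5.72 in LY294002. In the NFIL3 line it stood at 6.22 and 6.78 in DMSO and at 6.09 and 5.81 in LY294002. The groups did not overlap in any line. In LY294002 HNF4G was below background on both arrays of the CKS2 line and on replicate 2 of the BOP1 and NFIL3 lines (detection p 0.0208 and 0.0182). HNF4G passed the filter on dim probes through groups other than this one.

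With 1 of the 2 LY294002 arrays below background in each case, the measured difference was -0.89 ± 0.17 (SE, adjusted p = 0.00215) in the BOP1 line and -0.55 ± 0.17 (SE, adjusted p = 0.0292) in the NFIL3 line. In the CKS2 line the level in LY294002 is a bound: HNF4G was at least 1.68-fold lower (measured difference -0.98 ± 0.17, SE, adjusted p = 0.000848), where the dim group was set, on each array, to the higher of its own level and the lowest level of any detected probe. The NFIL3 call was lost without DMSO replicate 2 (adjusted p 0.359) and without LY294002 replicate 2 (adjusted p 0.212). Without background correction the differences were -0.44, -0.47 and -0.26 in the BOP1, CKS2 and NFIL3 lines, the last not called, and the NFIL3 call was also lost with the authors' processed values (-0.26, adjusted p 0.0557).

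SOX9 stood at 12.43 and 12.38 in the BOP1 line in LY294002, at 12.60 and 12.50 in the CKS2 line and at 12.45 and 12.57 in the NFIL3 line, above the DMSO arrays of each line given before. It rose by 0.31 ± 0.10 (SE) in the CKS2 and NFIL3 lines (adjusted p = 0.0300 and 0.0298), and the difference in the BOP1 line was 0.24 ± 0.10 (adjusted p = 0.0836). Both calls were lost without 3 of the 4 single arrays (adjusted p up to 0.249 and 0.188). They were also lost with median scaling, where the differences were 0.11 and 0.21 (adjusted p 0.427 and 0.123), and with no filter on dim probes (0.0568 and 0.0563). Averaged over the lines the rise was 0.29 ± 0.06 (SE, 1.22-fold, adjusted p = 0.000565).

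The other factors did not pass the test with LY294002 within any line. ELF3 stood above its DMSO mean in each line, by 0.11, 0.30 and 0.27, which did not pass the test within a line. Its mean over the lines rose by 0.23 ± 0.07 (SE, adjusted p = 0.0141), a call lost without NFIL3 DMSO replicate 2 (adjusted p 0.053). CDX2 differed by -0.31 ± 0.12 (SE, adjusted p = 0.0614) in the CKS2 line, by 0.17 ± 0.12 in the BOP1 line and by -0.01 ± 0.12 in the NFIL3 line. The 2 CKS2 arrays in LY294002 were 9.92 and 9.58 for CDX2, and without the first of them the fall was called (-0.48, adjusted p 0.0119). KLF4 and KLF5 did not pass the test in any line or over the lines. KLF5 means in DMSO and LY294002 were 8.43 and 8.73 in the BOP1 line and 8.68 and 8.64 in the CKS2 line. In the NFIL3 line they were 8.41 and 8.76. The pooled SD between replicate arrays was 0.25 for KLF5, so differences of that size were not resolved.

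Genes around the factors were also called with LY294002, where 49.2% of all genes were called on the mean of the 3 lines. The counts below, 10 of 14, 7 of 9 and 8 of 11 genes, are to be read against that share. They include genes at or near background, which are named with each list. Values are log2 differences on that mean unless a line is named. Of the 14 other intestinal and endodermal factors tested, 1 rose and 9 fell, with a median difference of -0.32 where the median over all genes was -0.02. The 9 include PRDM1, detected on 0 of the 6 LY294002 arrays and 0 of the 6 DMSO arrays. PRDM1 passed the filter on dim probes through other groups, so its call is not a measured fall. MYB, a factor of crypt progenitors, fell by 0.61, the vitamin D receptor VDR by 0.90 and PITX1, a homeobox factor, by 0.31. The forkhead factor FOXA3 fell by 0.45. FOXA2 (-0.54) and VDR were detected on 4 and 5 of the 6 LY294002 arrays and on all 6 in DMSO, so their differences are less exact. TCF7L2, the partner of beta-catenin at Wnt targets, rose by 0.39.

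Of the 9 absorptive genes tested, 0 rose and 7 fell, with CEACAM1, MUC13, TSPAN8 and EPS8L3 at or near background. KRT20, a keratin of mature colonocytes, differed by -1.56, -1.32 and -1.52 in the BOP1, CKS2 and NFIL3 lines, all called. In the BOP1 line 1 of the 2 LY294002 arrays was below background for KRT20, and the difference was -2.30 without LY294002 replicate 1 and -0.81 without replicate 2. Under the other scalings the KRT20 differences came as close to 0 as -0.87, -0.80 and -0.89. The peptidase DPP4, detected on 4 of the 6 LY294002 arrays, differed by -0.79. The carbonic anhydrase CA2 differed by -0.25. The adhesion molecule CEACAM1, the mucin MUC13 and the tetraspanin TSPAN8 were below background on all 6 LY294002 arrays and detected on 3, 2 and 1 of the 6 DMSO arrays, so no size is given for them. EPS8L3 was detected on 1 of the 6 LY294002 arrays and 2 of the 6 DMSO arrays. Its limma call was lost under 2 of the other scalings (adjusted p up to 0.0656). The calls of CA2, MUC13 and TSPAN8 were lost without 3, 4 and 8 of the 12 single arrays (adjusted p up to 0.0589, 0.0652 and 0.118).

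Of the 11 crypt base genes tested, 1 rose and 7 fell. PROM1, a membrane protein of the crypt base, fell by 0.66, 0.64 and 0.59 in the BOP1, CKS2 and NFIL3 lines. AXIN2, a Wnt target that feeds back on the pathway, fell by 0.38 and the Polycomb gene BMI1 by 0.23. The ephrin receptor EPHB3 was detected on 5 of the 6 DMSO arrays and on none in LY294002. CDCA7 differed by -0.21, a call lost without NFIL3 DMSO replicate 2 (adjusted p 0.0559), and CD44 rose by 0.20.

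**Figure D4:**
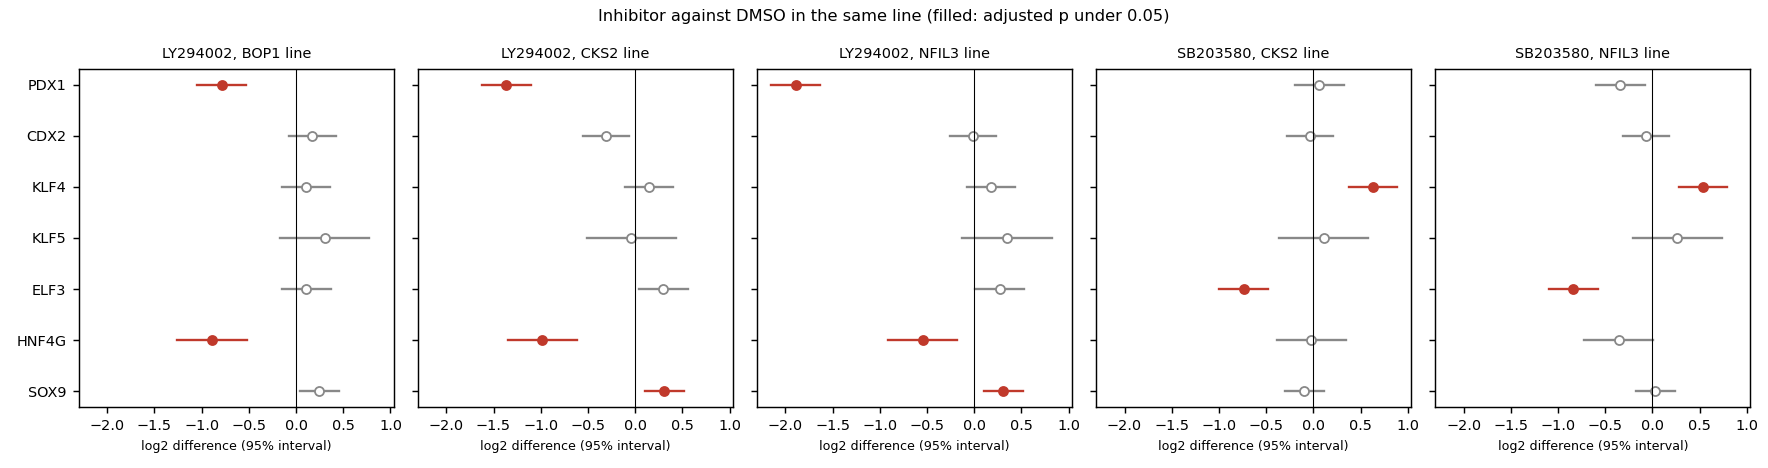
Log2 difference between inhibitor and DMSO in the same line (x axis, with 95% interval) for the 7 tested factors (y axis), for LY294002 in 3 lines and SB203580 in 2. PDX1 and HNF4G lay below 0 in all LY294002 panels, and KLF4 and ELF3 lay on opposite sides of 0 in both SB203580 panels.

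The p38 inhibitor SB203580 was compared with DMSO in the CKS2 and NFIL3 lines. It touched other members: ELF3 fell and KLF4 rose in both lines. Of the 7 factors, 2 were called in each line, beside 12.5% and 12.4% of all genes.

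ELF3 stood at 10.96 and 11.09 in the CKS2 line in DMSO and at 10.23 and 10.34 in SB203580. In the NFIL3 line it stood at 11.04 and 10.78 in DMSO and at 10.10 and 10.04 in SB203580. The 4 SB203580 arrays were the lowest of all 24 for ELF3, below the control line too. ELF3 fell 1.67-fold in the CKS2 line (-0.74 ± 0.12, SE, adjusted p = 0.00108) and 1.79-fold in the NFIL3 line (-0.84 ± 0.12, SE, adjusted p = 0.000395).

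KLF4 stood at 9.98 and 10.19 in the CKS2 line in DMSO and at 10.61 and 10.83 in SB203580. In the NFIL3 line it stood at 10.01 and 9.90 in DMSO and at 10.56 and 10.42 in SB203580. The groups did not overlap, and the 3 highest arrays of all 24, and 4 of the 5 highest, were in SB203580. KLF4 rose 1.55-fold in the CKS2 line (0.63 ± 0.12, SE, adjusted p = 0.00302) and 1.45-fold in the NFIL3 line (0.54 ± 0.12, SE, adjusted p = 0.00832). The CKS2 call was lost without DMSO replicate 1 (adjusted p 0.0572), and the NFIL3 call without DMSO replicate 2 (0.073) or SB203580 replicate 1 (0.070).

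KLF4 had a second probe, detected on all 24 arrays at lower levels. With each probe tested on its own, the second rose by 0.49 ± 0.14 (SE, adjusted p = 0.0350) in the CKS2 line and differed by 0.45 ± 0.14 (SE, adjusted p = 0.0512) in the NFIL3 line. Its 4 SB203580 arrays lay at 9.67, 9.54, 9.60 and 9.61, above the DMSO arrays of both lines.

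The effect of SB203580 did not differ between the lines past the threshold for any of the 7 factors, where 0% of all genes were called and 1 factor, PDX1, had an unadjusted p under 0.05. The difference between lines was 0.10 for ELF3 (95% interval -0.26 to 0.47) and 0.09 for KLF4 (-0.27 to 0.45). PDX1 itself differed from DMSO by -0.34 in the NFIL3 line (adjusted p = 0.0768). SOX9, CDX2, KLF5 and HNF4G did not pass the test in either line.

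The closest relatives of ELF3 were read beside it. EHF and ELF5, with ELF3 the epithelium-specific members of the ETS family, fell with SB203580 in both lines, EHF by 0.95 and 0.87 and ELF5 by 1.17 and 1.07 in the CKS2 and NFIL3 lines, with ELF5 below background on 1 of the 2 SB203580 arrays of the CKS2 line. With LY294002, under which ELF3 did not pass the test in any single line, EHF fell by 0.60, 0.94 and 0.78 in the BOP1, CKS2 and NFIL3 lines, and ELF5 by 1.17, 1.18 and 1.13. The EHF call in the BOP1 line was lost without BOP1 LY294002 replicate 2 (-0.34, adjusted p 0.19) and without either DMSO array (adjusted p 0.0592 and 0.0964), and the ELF5 call under SB203580 in the NFIL3 line without SB203580 replicate 2 (adjusted p 0.070). ELF5 stood at 6.88 and 6.42 in the control line and between 7.42 and 7.76 on the 6 DMSO arrays of the other lines. It was higher there by 0.99, 0.84 and 0.97 in the BOP1, CKS2 and NFIL3 lines, each call lost without control replicate 2 (adjusted p 0.0943, 0.179 and 0.0988). These calls were also lost without BOP1 DMSO replicate 2 (adjusted p 0.0722), either CKS2 DMSO array (0.0706 and 0.114) or NFIL3 DMSO replicate 1 (0.063).

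**Figure D5:**
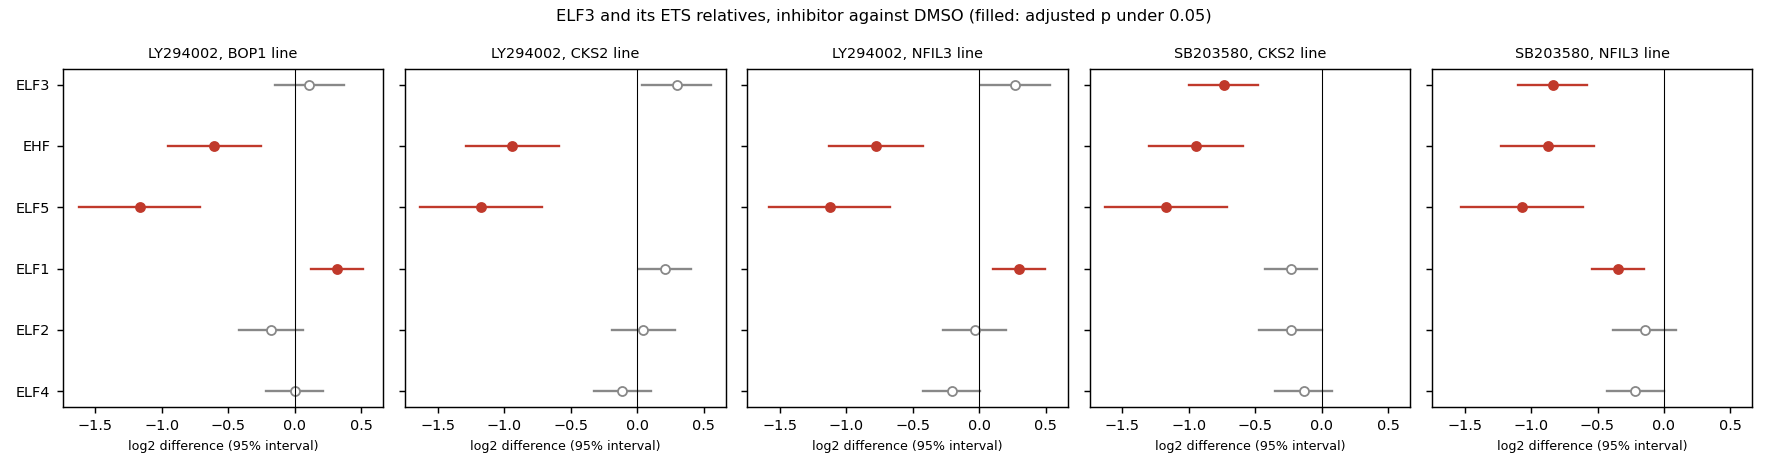
Log2 difference between inhibitor and DMSO (x axis, with 95% interval) for ELF3 and 5 ETS relatives (y axis), for LY294002 in 3 lines and SB203580 in 2. EHF and ELF5 lay below 0 in all 5 panels, and ELF3 in the 2 SB203580 panels.

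Of all 17 relatives of the members that were tested, EHF and ELF5 among them, 0 rose with SB203580 in either line, while 4 fell in CKS2 cells and 5 in NFIL3 cells, beside 12.5% and 12.4% of all genes. The others were GATA2, SOX4 and, in NFIL3 cells, ELF1. SOX4 differed by -0.34 in the CKS2 line, a call lost without any 1 of the 4 arrays (adjusted p up to 0.257), and by -0.49 in the NFIL3 line, lost without DMSO replicate 2 or SB203580 replicate 2 (0.0508 and 0.0742). ELF1 differed by -0.35, lost without 3 of the 4 arrays (adjusted p up to 0.172). GATA2, a relative of GATA6 best known from blood and endothelium, fell by 1.00 and 1.01 (adjusted p = 8.30e-05 and 7.28e-05). GATA2 was higher than control in the BOP1, CKS2 and NFIL3 lines in DMSO, by 1.01, 0.93 and 0.77. KLF6, a relative of KLF4 and KLF5, was higher there by 0.92, 0.92 and 0.82, and KLF2 rose with LY294002 by 0.70, 0.61 and 0.52. On the mean of the 3 lines with LY294002, KLF15 differed by -0.57, KLF12 by 0.41 and ELF1 by 0.27, the last not called with median scaling (adjusted p 0.105). SOX4, a relative of SOX9, was higher than control by 0.49, 0.53 and 0.59 in the 3 lines, the BOP1 call being lost without control replicate 2 or BOP1 DMSO replicate 1 (adjusted p 0.0514 and 0.0591).

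Of the other lists, AXIN2 fell with SB203580 in both lines, by 0.59 and 0.66. FOXA3 differed by -0.49 in the CKS2 line, lost without 3 of the 4 arrays (adjusted p up to 0.115), and fell by 0.74 in the NFIL3 line. LYZ, the lysozyme of Paneth cells, differed by -0.99 in the NFIL3 line, where 1 of the 2 SB203580 arrays was below background. Both were below background in the CKS2 line, where the LYZ call was lost without any 1 of the 4 arrays (adjusted p up to 0.152). In DMSO, LYZ was higher than control by 0.99 in the NFIL3 line.

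Markers of other cell types moved with the same groups. ACTA2 was called against control in each line and with each inhibitor that moved a factor. It was higher than control in the BOP1, CKS2 and NFIL3 lines, rose with LY294002 (0.62, 0.39 and 0.56) and with Rapamycin (0.50), and fell with SB203580 (-0.58 and -0.47). Of these 9 calls, those with LY294002 in the BOP1 and NFIL3 lines were kept without each single array, and the others were lost without 2 to 4 of their 4 arrays (adjusted p up to 0.196). The fibroblast collagen COL1A1 fell with SB203580 in the CKS2 and NFIL3 lines (-0.55 and -0.71), calls lost without 3 and 1 of the 4 arrays (adjusted p up to 0.247 and 0.0526). The leukocyte integrin ITGAM was at least 1.79-fold higher with LY294002 in the NFIL3 line (adjusted p = 0.00186), where both DMSO arrays were below background. Its call in the other direction with SB203580 in the CKS2 line was lost without any 1 of the 4 arrays (adjusted p up to 0.205). The summed normalized signal of the 4 smooth muscle markers ran from 733 in the CKS2 line in SB203580 to 1501 in the BOP1 line in LY294002. It was 744 in the control line, 1006 to 1055 in the other lines in DMSO and 1409 in Rapamycin, while MYH11, DES and CNN1 were below background on all 24 arrays. The sums ran from 258 to 356 for fibroblast markers, from 160 to 224 for leukocyte markers and from 137 to 186 for endothelial markers, against 64605 to 76810 for the colon epithelial list. Undetected genes add background signal to these sums. Below background on all 24 arrays were 3 of 5 fibroblast, 2 of 4 leukocyte and 4 of 5 endothelial genes with a probe. Colon epithelial markers were also called. CDH1 fell with SB203580 in the CKS2 and NFIL3 lines (-0.45 and -0.45). CDH1 was higher than control by 0.38 in the CKS2 line, a limma call lost under 1 of the other scalings (adjusted p 0.0596). KRT8 rose with LY294002 by 0.44 in the CKS2 line and by 0.27 over the lines. The part of all these markers in the changes of the 9 factors was not tested.

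Rapamycin was given to the NFIL3 line only. Of the 7 factors 1 was called, beside 7.61% of all genes. PDX1 stood at 7.63 and 7.42 in Rapamycin against 7.95 and 8.00 in DMSO, and fell by 0.45 (-0.45 ± 0.12, SE, 1.36-fold, adjusted p = 0.0355). That call was lost without any 1 of the 4 arrays (adjusted p 0.0543 to 0.244). ACTA2 rose by 0.50 in the same comparison, as given above, and its part was not tested. KLF5 stood at 9.03 and 9.23 in Rapamycin, the highest 2 arrays of the 24, against 8.40 and 8.43 in DMSO. The difference for KLF5 was 0.72 ± 0.22 (SE, adjusted p = 0.0609).

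In the BOP1 line neither SP600125 nor DAPT moved a factor past the threshold. limma called 0 of 7 for SP600125, where 1 factor had an unadjusted p under 0.05 and 0% of all genes were called. It called 0 of 7 for DAPT, where 2 factors had an unadjusted p under 0.05 and 0.00824% of all genes were called. With SP600125 the PDX1 arrays were 7.98 and 7.83, above both DMSO arrays, a difference of 0.30 ± 0.12 (SE, adjusted p = 0.356, 95% interval 0.04 to 0.56). With DAPT the KLF4 arrays were 10.40 and 10.45, also above both DMSO arrays (10.04 and 10.13), a difference of 0.34 ± 0.12 (SE, adjusted p = 0.265, 95% interval 0.08 to 0.59). ELF3 differed by -0.27 ± 0.12 (SE, adjusted p = 0.384) with DAPT. The doses of these inhibitors differed from those of LY294002 and SB203580.

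The order of the groups for PDX1 began with the control line in DMSO (mean 8.25, SD 0.07, n = 2), which stood apart. The NFIL3 line in DMSO (7.97) overlapped the BOP1 line in SP600125 (7.91), and below these came the BOP1 line in DAPT (7.74), which overlapped the group after it. The next 5 groups lay between 7.53 and 7.63, and each overlapped the next. After a gap of 0.70 came the BOP1 line in LY294002 (6.82), then the CKS2 line (6.18) and the NFIL3 line (6.08) in LY294002, which overlapped each other. For ELF3 the order ran from the CKS2 line in LY294002 (11.32) to the control line (10.62) and the SB203580 groups of the CKS2 line (10.29) and the NFIL3 line (10.07), and the lowest 3 groups did not overlap. For HNF4G the order ran from the BOP1 line (6.82) and the control line (6.81) in DMSO to the CKS2 line in LY294002 (5.71). For HNF4G all neighbours overlapped except the BOP1 and CKS2 lines in LY294002, whose nearest arrays were 5.73 and 5.72.

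For SOX9 the order ran from the CKS2 line in LY294002 (12.55) to the control line (11.83), with a gap of 0.32 between the control line and the group above it. For KLF4 the CKS2 line in SB203580 was highest (10.72), followed by the NFIL3 line in SB203580 (10.49) and the BOP1 line in DAPT (10.42), which overlapped, and by the other 9 groups between 9.95 and 10.23. For KLF5 the NFIL3 line in Rapamycin was highest (9.13) and apart from the rest, and the other 11 groups (8.41 to 8.79) each overlapped the next. For CDX2 the group means lay between 9.75 (the CKS2 line in LY294002) and 10.18 (the NFIL3 line in Rapamycin).

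Over the 12 group means, PDX1 and HNF4G correlated at r = 0.85, and without the 3 LY294002 groups at r = 0.34. PDX1 and SOX9 correlated at r = -0.84 over 12 groups and -0.76 over the 9 without LY294002. KLF4 and ELF3 correlated at r = -0.69 over 12 and -0.80 over 9. These are descriptions with no test, since the groups share lines and a normalization.

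The tested genes whose group means followed each factor most closely were found by Pearson's r over the 12 groups. For PDX1 these were FAM83D (r = 0.970), AP5M1 and QTRT2, and r of FAM83D was 0.705 over the 9 groups without LY294002. For ELF3 they were ZSCAN2 (0.981), the cadherin CDH3 (0.978) and SMAD6 (0.968), which lay at 0.968 or above without LY294002. For SOX9 they were TSSK3 (0.966), MOAP1 and CSAD, for HNF4G MMACHC (0.961), POLR1C and NCAPD2, and for KLF4 HPCAL1 (0.953), WFDC3 and CNIH4. For CDX2 they were ONECUT2 (0.852), AKAP7 and ELOVL5 and for KLF5 PDP1 (0.827), CDK17 and TBX1. With 12141 genes to choose from, a high r is found for any gene, and these names are a description.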

How the data were processed

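The deposited non-normalized table gave, per the file headers, an intensity and a detection p-value for each probe on each of 24 arrays. A second deposited table, of processed intensities, served as an alternative. GenomeStudio 2010.1 and Partek are named in the submitters' processing notes, but not what each did.

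From the authors' deposited intensities, limma 3.58.1 (R 4.3.3) computed background-corrected, quantile normalized log2 levels (neqc, offset 16). Because of the offset, differences of dim genes are understated. The platform annotation named 1 gene symbol for 30113 of the 47323 probes, several for 8 and none for 17202. Probes with a detection p under 0.01 on at least 2 arrays were kept (21608), and the brightest kept probe stood for a gene (3479 genes had several), which left 12141 genes. A limma model of the 12 groups (12 residual degrees of freedom, 4.44 prior) gave 19 contrasts, with Benjamini-Hochberg adjustment over all genes and a threshold of 0.05, which is what "rose", "fell" and "called" refer to. The p-values measure the spread between arrays, which may be partly technical. Intervals are 95%, and the median standard error of a comparison of 2 groups was 0.129. Across genes, which are not independent replicates, r between replicate arrays was 0.991 to 0.996. The script was tested on simulated data.

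The 9 factors, the gene lists and the motifs were chosen with earlier results of these data known. The rule for names took every probe of the factors, the 3 genes with the highest r to each and, of each gene list, up to 6 called genes with the smallest p in a comparison described, with defining genes below background. It was followed for LY294002 over the lines. For the other comparisons some called list genes are counted only, and the named ones were chosen after their values were seen. Promoters were listed for 5 of the 9 factors in the RefSeq table (GRCh38.p14). PDX1, CDX1, SOX9 and HNF4G are only named. Figures were made in matplotlib 3.10.9 (Python 3.11.15).

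Groups share a replicate number in the labels. Over 66 pairs of groups, deviations of same-numbered arrays correlated at r = -0.103 to 0.291, with a median of -0.00. These values do not settle whether same-numbered arrays were handled together. The fit has no replicate term, and a fit with one is given below.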

Additional observations from a re-analysis of the deposited data

Results flagged for a closer look

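The fall of PDX1 under LY294002 differed between lines by a test of the difference itself: the effect in the BOP1 line minus that in the NFIL3 line was 1.10 on the log2 scale (SE 0.17, adjusted p = 0.0357 in limma). The call was lost under 11 of 16 alternatives, with an adjusted p of up to 0.159. In all 16 the difference kept its sign, from 0.64 to 1.18. Each effect rests on 2 arrays a group, and both arrays of each group lay on the same side. In LY294002 the NFIL3 arrays were near the limit of detection for PDX1.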

How the results depend on the processing

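Of 24 calls of a factor in a comparison, 12 were kept under every alternative and 0 reversed: PDX1 with LY294002 (each line and the mean) and in the BOP1 and CKS2 lines against control, HNF4G with LY294002 in the BOP1 and CKS2 lines and the mean, ELF3 with SB203580 in both lines, and SOX9 with LY294002 over the lines. The counts of factors called moved as follows. With only the arrays compared in the fit, which has fewer degrees of freedom, they fell to 1 in the BOP1 line against control, 1 in the CKS2 line, 0 in the NFIL3 line, 1 for LY294002 and 1 for SB203580 in the NFIL3 line, 0 for Rapamycin and 0 for the LY294002 difference between the BOP1 and NFIL3 lines. With no filter on dim probes (more genes tested) and with median scaling they were 1 in the BOP1 line, 0 for Rapamycin and 0 for that difference, which was also 0 with every kept probe tested on its own. Single calls were also lost where a count moved little: SOX9 in the NFIL3 line against control with median scaling (0.16), SOX9 with LY294002 in the CKS2 and NFIL3 lines with median scaling (0.11 and 0.21) and with no filter on dim probes, ELF3 in the CKS2 line against control with no filter (adjusted p 0.0658), and HNF4G with LY294002 in the NFIL3 line with the deposited processed values and without background correction. For Rapamycin the count was 2 without background correction, with the deposited processed values and with detection on at least 12 arrays, KLF5 being called there (adjusted p 0.015, 0.0149 and 0.0483). The cause was not tested where none is named.

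Leaving out single arrays gave 1 to 1 factors called in the BOP1 line against control, 1 to 2 in the CKS2 line and 0 to 0 in the NFIL3 line. It gave 1 to 3 for LY294002 in the NFIL3 line, 1 to 2 and 1 to 3 for SB203580 in the CKS2 and NFIL3 lines, 0 to 0 for Rapamycin and 0 to 1 for the LY294002 difference. The lone array of a group was then assumed to vary like the other groups. Median scaling shifted the median of all genes by -0.13 in the NFIL3 line against control, by 0.16 between the CKS2 and NFIL3 lines, by -0.12, -0.14 and -0.10 for LY294002 in the BOP1 and CKS2 lines and over the lines, and by -0.11 for SB203580 in the CKS2 line. Relative to those shifts, the PDX1 difference over the lines was -1.27, that of SOX9 0.25 and that of ELF3 0.18 (not called, adjusted p 0.358). With the replicate number as a block, the counts were 2, 3 and 1 for the BOP1, CKS2 and NFIL3 lines against control and changed in no comparison. The block moved the count of all genes called for the LY294002 difference from 17 to 5 (BOP1 minus NFIL3) and from 36 to 22 (CKS2 minus NFIL3). A slide as a block was not run, since the column names give no slide. Signal over background limits HNF4G and, with LY294002 in the CKS2 and NFIL3 lines, PDX1. CDX1 and GATA6 could not be measured. With 2 arrays a group, small differences of the other factors were not detectable.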

Other observations

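Secretory and gastric genes near these factors gave values of their own. Of 4 secretory genes tested, FCGBP, a component of goblet cell mucus, was higher than control in the BOP1, CKS2 and NFIL3 lines by 0.77, 0.74 and 0.70, and rose with LY294002 by 0.84, 1.01 and 1.05 and with Rapamycin by 0.73. With SB203580 it fell by 0.60 in the NFIL3 line and differed by -0.41 in the CKS2 line, a call lost without CKS2 DMSO replicate 1 (adjusted p 0.175) and without either SB203580 array (0.054 and 0.132). SCG2, a secretogranin of endocrine granules, was higher than control by 0.62, 0.73 and 0.89 in the 3 lines. With SB203580 it differed by -0.46 in the CKS2 line and by -0.60 in the NFIL3 line, both called. ANXA10, the 1 gastric gene of 8 that was tested, fell with LY294002 in the BOP1, CKS2 and NFIL3 lines, with differences of -1.38, -1.20 and -1.20.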
